A study of Mus musculus with 12 samples.

Results

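Genes of fructose uptake, fructose breakdown and the polyol pathway were followed in N9, a mouse microglial line that has been immortalised; microglia are the macrophages that reside in brain tissue. They were Slc2a5, Khk, Tkfc, Sord, Akr1b3, Akr1b8 and Akr1a1, found by symbol as 7 of the 54532 genes in the deposited count table. The filter on low counts kept 12766 genes for testing, among them 6 of the 7, and removed Slc2a5. The series asks how microglia use sugars, a question raised by Alzheimer disease, and RNA sequencing gave 12 libraries in 4 groups of 3.

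All groups were held for 18 h in glucose-free DMEM with dialyzed serum, to which sugars had been added, after routine culture in RPMI. The high-fructose group had control medium with 15 mM fructose, and the high-glucose group control medium with 15 mM glucose; whether 15 mM is the final level or was added is unstated. The third group had control medium alone, with 3 mM glucose and 5 mM fructose, and these 3 groups then received lipopolysaccharide (LPS), a cell wall component of Gram-negative bacteria that activates microglia, at 1 µg/ml for 6 h. The fourth group was control medium without LPS. The control medium therefore already held fructose, and the labels list neither a fructose-free culture, nor a raised sugar without LPS, nor an osmotic control. N9 is 1 immortalised line, and the labels leave unstated whether a group's 3 libraries are separate cultures, so p-values measure the spread between these libraries.

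Fructose enters cells through facilitative carriers, of which GLUT5, encoded by Slc2a5, is the classical one and has been described in microglia. Ketohexokinase, from Khk, phosphorylates fructose at its first carbon, the product is split, and triokinase, from Tkfc, returns the resulting glyceraldehyde to glycolysis. In the polyol pathway, aldose reductase, from Akr1b3, reduces glucose to sorbitol, and sorbitol dehydrogenase, from Sord, oxidises sorbitol to fructose. Akr1b8 and Akr1a1 encode related aldo-keto reductases, the first active on lipid-derived aldehydes and the second the aldehyde reductase of vitamin C synthesis in the mouse.

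Aldose reductase and sorbitol dehydrogenase have near-identical copies elsewhere in the genome, which bears on how their reads can be assigned. The stretch shown is coding bases 151 to 240 of Akr1b3 and the matching 90 bases of Akr1b8 and of a pair of processed pseudogenes, 5′ to 3′, from GENCODE M21 transcripts. It was chosen as the 90 bases, without gaps, in which the coding sequences of Akr1b3 and Akr1b8 are most alike. Capitals mark each base that differs from Akr1b3.
Akr1b3: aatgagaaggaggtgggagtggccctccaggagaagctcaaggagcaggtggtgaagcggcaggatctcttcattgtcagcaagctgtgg
Akr1b8: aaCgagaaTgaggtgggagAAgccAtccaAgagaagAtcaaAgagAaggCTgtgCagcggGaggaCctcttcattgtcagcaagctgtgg
Gm12138: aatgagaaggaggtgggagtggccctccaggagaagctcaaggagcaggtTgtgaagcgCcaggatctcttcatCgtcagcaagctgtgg
Gm6736: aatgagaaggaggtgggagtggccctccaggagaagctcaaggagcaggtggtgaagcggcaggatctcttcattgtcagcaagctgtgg

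In this stretch Akr1b8 differed from Akr1b3 at 14 of 90 bases, the pseudogene Gm12138 at 3 and the pseudogene Gm6736 at 0. Over the whole coding sequence Akr1b3 and Akr1b8 were identical at 681 of 945 aligned bases, or 72.1%, with no identical run longer than 24 bases. Akr1a1 shared 61.9% of aligned coding bases with Akr1b3 and 62.4% with Akr1b8. By contrast, 97.5% of the main Akr1b3 transcript matched other annotated genes at 98% identity or more over at least 75 bases. Those were 4 annotated genes: Gm6736 on chromosome 12 at 13455023 to 13455970, Gm12138 on chromosome 11 at 40672906 to 40673856, and Gm6644 and Gm38056 on chromosome 1. Gm6644, at 55444074 to 55445024, lies within Gm38056, at 55440904 to 55445930, so they are not separate copies.

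The authors' counting gave these 4 annotated genes 784 reads over the 12 libraries, against 44542 for Akr1b3. Gm6736 held 407 of them and Gm12138 368, while Gm38056 had 9 and Gm6644 had 0. For Sord, 45.5% of the transcript matched the pseudogene Gm6652, which had 111 reads against 28902 for Sord. The reads of Akr1b3 and Sord are thus uncertain, by an amount that these counts do not show. The handling of reads with several matches is not stated in the labels. With the copies added to their gene, the log2 change under LPS was 0.25 for Akr1b3 and -0.15 for Sord. Against LPS in control medium, Akr1b3 was then at 0.20 in high glucose and 0.28 in high fructose. The copies hold few reads beside their genes, so adding them could hardly move these values. Reads that the counting may have dropped are not covered by it. No other gene reached the matching limit for Slc2a5, Khk, Akr1b8 or Akr1a1, and 5.37% of Tkfc matched its neighbour Cyb561a3.

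Library totals ran from 15453776 to 17956772 counts. The 8 genes of the microglial list had summed levels of 1270 to 1360 CPM (counts scaled to library size) in high fructose and 1220 to 1280 CPM in high glucose. Their sums were 1350 to 1400 CPM with LPS in control medium and 1280 to 1380 CPM in control medium. A sum does not show the level of each gene. Of those 8 genes, P2ry12 and Aif1 did not pass the filter. The libraries stood apart in 5 cases by reads of Alb, the liver's albumin gene. Alb had 934, 0 and 8 reads in high fructose, 2, 106 and 348 in high glucose, 2, 0 and 0 with LPS in control medium and 2, 155 and 292 in control medium. The summed level of the 4 epithelial and hepatocyte markers was 0.183 to 60 CPM in high fructose, 0.179 to 23.3 CPM in high glucose, 0 to 2.77 CPM with LPS and 0.543 to 16.3 CPM in control medium. The part of these reads in the results was not tested, and values without the 5 libraries with at least 100 Alb reads are given beside the called results that change without them.

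Other marker lists varied too. The summed level of the 3 fibroblast markers was 0.388 to 13.9 CPM in high fructose, 0.423 to 5.28 CPM in high glucose, 0.236 to 4.95 CPM with LPS in control medium and 0.293 to 8.32 CPM in control medium. Col1a1 reached 114 reads in high-fructose library 2, which had 0 Alb reads. The sums of neuron, astrocyte and oligodendrocyte markers were lower with LPS in control medium than without and did not overlap, at 16 to 17.7 CPM against 22.4 to 24.4 CPM, 20.6 to 24 CPM against 28.1 to 30.1 CPM and 27.1 to 28.5 CPM against 34.5 to 41.1 CPM. Each of these 3 sums rests on 1 gene that passed the filter. Marker sums are per library total, without the scaling factors used in the tests. The endothelial sum was 0.767 to 1.12 CPM with LPS and 0.176 to 0.482 CPM without, with Cldn5 at 0 in all libraries. The part of these markers in the results was not tested.

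The fructose carrier gene Slc2a5 (ENSMUSG00000028976; GRCm38 chromosome 4, 150119283 to 150144169, plus strand) was close to absent in all 4 groups. It had 1, 0 and 0 reads in the high-fructose libraries and 1, 1 and 1 in the high-glucose libraries. With LPS in control medium it had 1, 0 and 2 reads, and without LPS 1, 2 and 0. The 12 libraries together gave 10 reads of 199608269, and no library exceeded 2.

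Summed over a group, the exact 95% Poisson interval was 0.0253 to 5.57 reads for the 1 read in high fructose and 0.619 to 8.77 reads for the 3 reads in each of the other groups. The upper bounds correspond to 0.115, 0.178, 0.174 and 0.170 CPM of the raw group totals in high fructose, high glucose, LPS and control medium. These intervals cover counting error only. All groups lie at or under 3 reads, so no fold was computed, and a change in Slc2a5 below these bounds was not detectable at this depth.

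**Figure D1:**
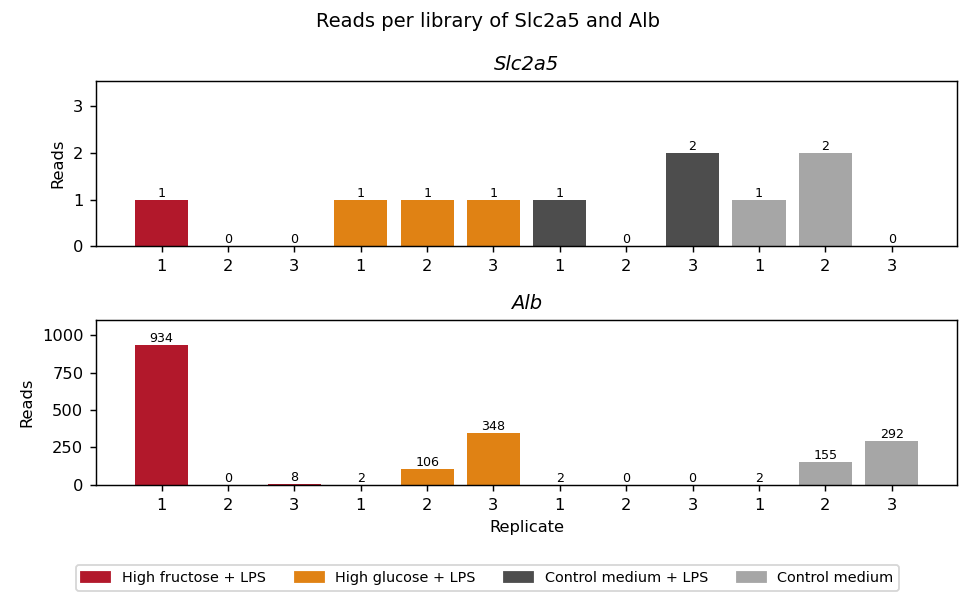
Reads per library (vertical axes, raw counts, each panel on its own scale from 0) of Slc2a5 and Alb in the 3 libraries of each group, numbered 1 to 3 (horizontal axis). Slc2a5 had 0 to 2 reads everywhere, and 5 libraries had at least 100 Alb reads.

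Aldoa, the aldolase of glycolysis in most tissues, was abundant, at a mean of 703 FPKM (fragments scaled by gene length and library total) in high fructose and 683 FPKM with LPS in control medium.

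Ketohexokinase and triokinase were expressed at low levels, and no comparison called either gene. Khk (ENSMUSG00000029162; chromosome 5, 30921431 to 30931248, plus strand) had 28.9, 26.1 and 28.5 CPM in high fructose and 33.2, 24.98 and 26.9 CPM in high glucose. With LPS in control medium it had 23.4, 24.6 and 27.5 CPM, and in control medium 31.8, 27.3 and 27.4 CPM. Every pair of groups overlapped, and the high-glucose libraries had the widest range of the 4 groups.

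Against LPS in control medium, the log2 fold change of Khk was 0.15 in high fructose (95% interval -0.08 to 0.37) and 0.17 in high glucose (-0.05 to 0.40). LPS itself gave -0.20 (-0.42 to 0.02), with an adjusted p of 0.18 by edgeR. These intervals leave room for changes of the size seen in the reductases. With library totals alone in place of the trimmed mean of M-values (TMM), Khk was called lower with LPS, at -0.29 with an adjusted p of 0.041.

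Tkfc (ENSMUSG00000034371; chromosome 19, 10592200 to 10604258, minus strand) had 15.3, 15.1 and 14.3 CPM in high fructose and 13.7, 14.2 and 16.5 CPM in high glucose. With LPS in control medium it had 15.7, 15.3 and 16.7 CPM, and in control medium 15.9, 12.6 and 14.5 CPM. The high-fructose libraries lay just below those with LPS in control medium, and the other pairs of groups named here overlapped. Its log2 fold change was -0.10 in high fructose (-0.32 to 0.13) and -0.11 in high glucose (-0.33 to 0.12), each against LPS in control medium, and 0.15 (-0.07 to 0.38) for LPS. Of its exonic bases, 5.19% overlap Cyb561a3 on the other strand, and the labels do not say whether counting used strand.

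Aldose reductase was higher both with LPS and with raised fructose. In RNA from whole cultures, a change in some of the cells and a change in all of them cannot be told apart. Akr1b3 (ENSMUSG00000001642; chromosome 6, 34302434 to 34317478, minus strand) had 272, 249 and 258 CPM in high fructose and 259, 243 and 236 CPM in high glucose. It had 231, 204 and 207 CPM with LPS in control medium and 186, 177 and 175 CPM in control medium. All 3 LPS libraries lay above all 3 control libraries, and all 6 libraries with raised sugar lay above all 3 LPS libraries in control medium. The high-fructose and high-glucose libraries overlapped. How many of all tested genes separate between groups in this way was not counted.

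Sorbitol dehydrogenase, the next enzyme of the pathway, did not follow it. Sord (ENSMUSG00000027227; chromosome 2, 122234749 to 122265340, plus strand) had 144, 141 and 130 CPM in high fructose, 140, 144 and 139 CPM in high glucose, 144, 139 and 141 CPM with LPS in control medium and 166, 153 and 151 CPM in control medium. The 9 LPS-treated libraries lay below the 3 control libraries whichever sugar they held, and among the 9 the 3 groups overlapped.

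Of the related reductases, Akr1b8 was called in 3 of the 4 comparisons and Akr1a1 in 0. Akr1b8 (ENSMUSG00000029762; chromosome 6, 34354119 to 34368463, plus strand, near Akr1b3) had 383, 364 and 379 CPM in high fructose and 333, 349 and 324 CPM in high glucose. It had 332, 321 and 327 CPM with LPS in control medium and 283, 280 and 287 CPM in control medium. The high-fructose libraries lay above those of every other group, and the control libraries below. Akr1a1 (ENSMUSG00000028692; chromosome 4, 116636510 to 116651680, minus strand) had 592, 539 and 581 CPM in high fructose, 584, 556 and 551 CPM in high glucose, 593, 585 and 589 CPM with LPS in control medium and 597, 538 and 557 CPM in control medium.

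**Figure D2:**
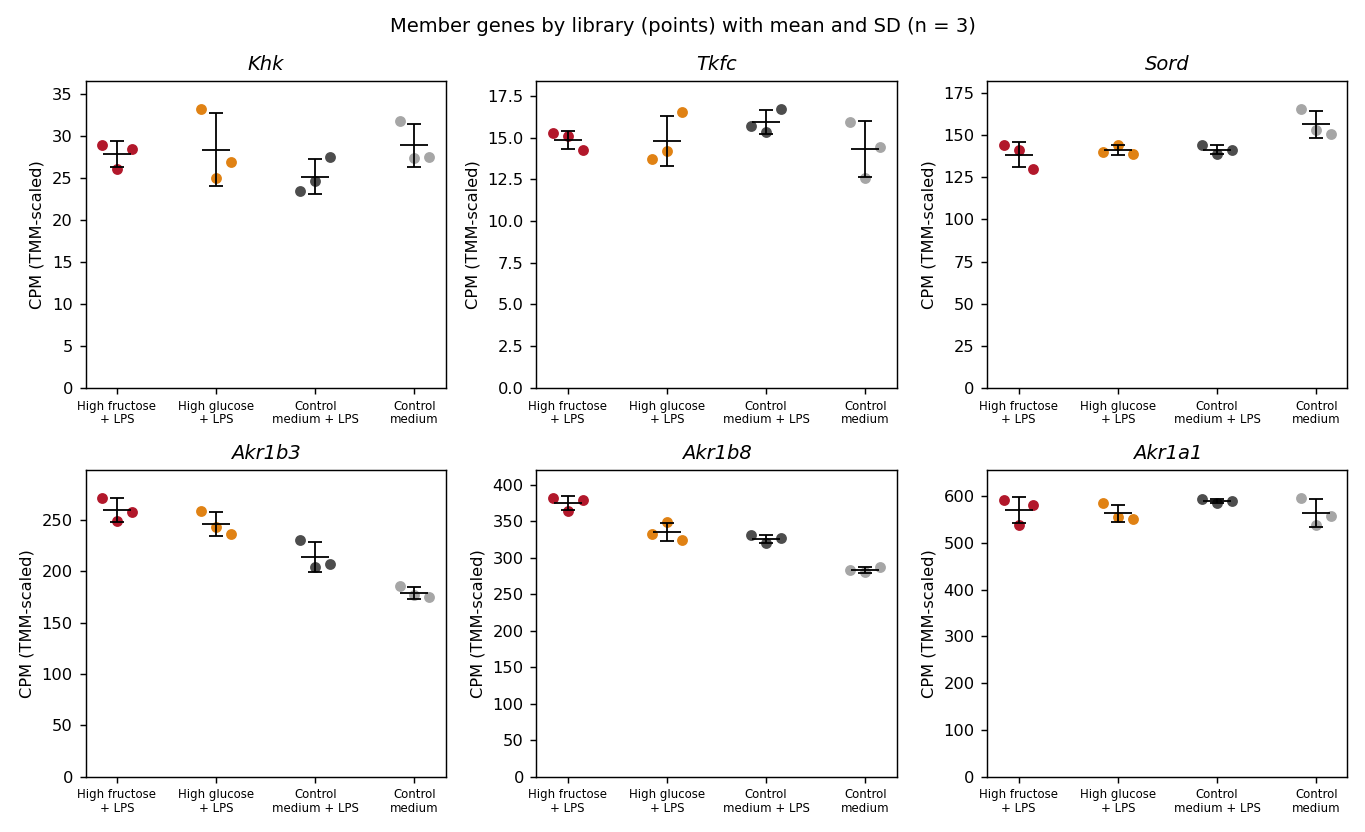
Level of the 6 tested genes in each library (points; vertical axes, TMM-scaled CPM, from 0) with the mean and SD of each group (bars, n = 3). Akr1b3 was 249 to 272 CPM in high fructose and 175 to 186 CPM in control medium, Akr1b8 364 to 383 CPM in high fructose and 280 to 287 CPM in control medium, and the Khk groups overlap throughout.

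The first comparison asked what LPS changed in control medium. Aldose reductase and Akr1b8 rose and sorbitol dehydrogenase fell. Akr1b3 averaged 214 ± 14.7 CPM with LPS and 179 ± 5.71 CPM without (SD, n = 3 each), a log2 fold change of 0.26 with a standard error (SE) of 0.06, or 1.20-fold, and an adjusted p of 0.00187 by edgeR. Akr1b8 averaged 326 ± 5.43 CPM with LPS and 283 ± 3.77 CPM without, a log2 fold change of 0.20 (SE 0.04), or 1.15-fold, with an adjusted p of 0.00134. Sord averaged 141 ± 2.52 CPM with LPS and 157 ± 7.97 CPM without, a log2 fold change of -0.15 (SE 0.05) with an adjusted p of 0.0419.

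With LPS, 3 of the 6 tested genes were thus called, 2 higher and 1 lower, against 28.8% of all genes tested, 15.2% higher and 13.6% lower. The median log2 change was 0.11 over the 6 genes and -0.004 over all genes tested. Of the 1941 genes called higher, 1512 rose by more than Akr1b3 and 1729 by more than Akr1b8. With library totals alone in place of TMM scaling, the split of all calls was 1412 higher and 2951 lower, against 1941 and 1736, and with upper-quartile factors it was 1622 and 2292.

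The rises of Akr1b3 and Akr1b8 stayed called without any 1 library, with largest adjusted p of 0.0167 and 0.00974. The call of Sord was lost with no filter on low counts (adjusted p 0.0846) and without control library 1 (adjusted p 0.176), control library 2 (0.0546) or LPS library 1 (0.064), 2 (0.128) or 3 (0.109). Without the 5 Alb-bearing libraries, which leaves 1 control library, the log2 changes were 0.21 for Akr1b3 (adjusted p 0.107), 0.21 for Akr1b8 (0.0522) and -0.22 for Sord (0.0563), all by edgeR.

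The second comparison asked what raised fructose changed among LPS-treated cells. Aldose reductase and Akr1b8 rose again, with all 3 high-fructose libraries above all 3 libraries in control medium for each gene. The share of all tested genes that separate in this way was not counted, so the separation only describes these genes. Akr1b3 averaged 260 ± 11.6 CPM in high fructose and 214 ± 14.7 CPM in control medium with LPS, a log2 fold change of 0.28 (SE 0.06), or 1.21-fold, with an adjusted p of 0.00512 by edgeR. Akr1b8 averaged 375 ± 9.67 CPM in high fructose and 326 ± 5.43 CPM in control medium with LPS, a log2 fold change of 0.20 (SE 0.04), or 1.15-fold, with an adjusted p of 0.00775.

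In high fructose, 2 of the 6 tested genes were called, both higher, against 4.91% of all genes tested, 2.37% higher and 2.55% lower. The median log2 change was 0.06 over the 6 genes. Of the 302 genes called higher, 196 rose by more than Akr1b3 and 275 by more than Akr1b8. Sord was at -0.03 (95% interval -0.14 to 0.08) and Akr1a1 at -0.05 (-0.15 to 0.06), and neither was called.

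The rise of Akr1b3 stayed called without any 1 library, with a largest adjusted p of 0.0452, and that of Akr1b8 was lost only without LPS library 2, at an adjusted p of 0.0536. Without the 5 Alb-bearing libraries the log2 changes were 0.24 for Akr1b3 (adjusted p 0.0622) and 0.18 for Akr1b8 (0.0951).

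The third comparison asked what raised glucose changed among LPS-treated cells, and none of the 6 tested genes was called by edgeR, against 1.56% of all genes tested, 0.587% higher and 0.971% lower. At an unadjusted p under 0.05 there was 1, Akr1b3, beside 1780 of the 12766 genes tested. DESeq2 called Akr1b3. Akr1b3 averaged 246 ± 11.6 CPM in high glucose and 214 ± 14.7 CPM in control medium with LPS, a log2 fold change of 0.20 (95% interval 0.08 to 0.32) with an unadjusted p of 0.00234 and an adjusted p of 0.0924 by edgeR. The 3 high-glucose libraries lay above the 3 in control medium with LPS. The adjusted p was 0.0316 by edgeR with no filter on low counts and 0.0351 with DESeq2. A fit with a replicate block called the gene too, so the call depends on these choices. Without the 5 Alb-bearing libraries, which leaves 1 high-glucose library, the log2 change was 0.28 with an adjusted p of 0.236.

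Akr1b8 was at 0.04 in high glucose (95% interval -0.05 to 0.13) and Sord at -0.00 (-0.11 to 0.11). Akr1a1 was at -0.06 (-0.16 to 0.04), with its 3 high-glucose libraries at or below 584 CPM and the 3 in control medium with LPS at or above 585 CPM, and an adjusted p of 0.62. The high-fructose and high-glucose comparisons share the LPS libraries in control medium, so their changes are not independent of each other.

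The fourth comparison set the sugars against each other. Only Akr1b8 was called, higher in high fructose, which is 1 of 6 tested genes against 3.72% of all genes tested, 1.84% higher and 1.88% lower. It averaged 375 ± 9.67 CPM in high fructose and 335 ± 12.2 CPM in high glucose, a log2 fold change of 0.16 (SE 0.04), or 1.12-fold, with an adjusted p of 0.0419 by edgeR. For Akr1b3 the difference was 0.08 (95% interval -0.04 to 0.20), so that a difference between the sugars was not shown for aldose reductase.

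The call of Akr1b8 between the sugars did not hold everywhere. It was lost with upper-quartile factors (adjusted p 0.0536), with no filter (0.0961), with the 2 groups fitted alone (0.202), without high-glucose library 1 (0.0988) or 3 (0.175) and without high-fructose library 1 (0.141) or 3 (0.12). Without the 5 Alb-bearing libraries it was 0.15 with an adjusted p of 0.355, and Akr1b3 was at -0.0377. The differences of the other 4 tested genes were -0.03 for Khk, 0.01 for Tkfc, -0.03 for Sord and 0.02 for Akr1a1, on the log2 scale.

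**Figure D3:**
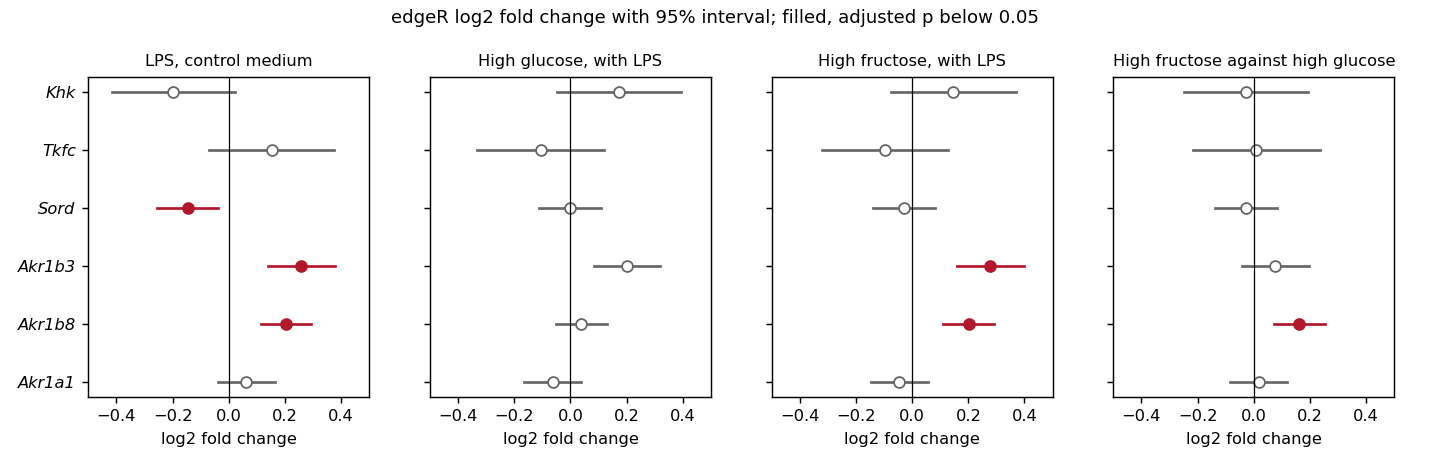
Log2 fold change (horizontal axes) of the 6 tested genes in the 4 comparisons, with 95% intervals from edgeR and filled points where the adjusted p was below 0.05. Akr1b3 and Akr1b8 lie at 0.26 and 0.20 under LPS and at 0.28 and 0.20 in high fructose, Sord at -0.15 under LPS, and the intervals of Khk and Tkfc are the widest.

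Levels between genes were compared per length, and the length used changed the order. By the length of the main coding transcript, the means in high fructose were 399 ± 19.9 FPKM for Akr1a1, 274.5 ± 7.25 FPKM for Akr1b8, 186 ± 8.46 FPKM for Akr1b3, 58.5 ± 3.13 FPKM for Sord, 17.5 ± 0.961 FPKM for Khk and 6.56 ± 0.241 FPKM for Tkfc (SD, n = 3). In control medium they were 395 ± 20.8, 208 ± 2.58, 128 ± 4.09, 66.2 ± 3.36, 18.1 ± 1.61 and 6.32 ± 0.740 FPKM in the same order of genes. That order was the same in all 4 groups, and no neighbours in it overlapped within a group. This scale assigns all reads of a gene to its main transcript, although Akr1b3 has 6 annotated transcripts. Reads that Akr1b3 shares with its copies may also be missing, so its level and place on this scale are uncertain.

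The deposited FPKM use the summed length of all annotated exons. For Akr1b3 that length is 8384 bases, 6.04 times the 1387 bases of its main coding transcript, and for Akr1a1 it is 2750 bases, 1.94 times. On the deposited scale Akr1b3 was therefore 30.8 ± 1.40 FPKM in high fructose and 21.2 ± 0.676 FPKM in control medium, below Sord in both. Akr1b8 at 249 ± 6.56 FPKM then stood above Akr1a1 at 206 ± 10.3 FPKM in high fructose, while in control medium Akr1b8 at 188 ± 2.34 FPKM stood below Akr1a1 at 204 ± 10.7 FPKM. Fold changes of a gene between groups do not depend on its length.

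**Figure D4:**
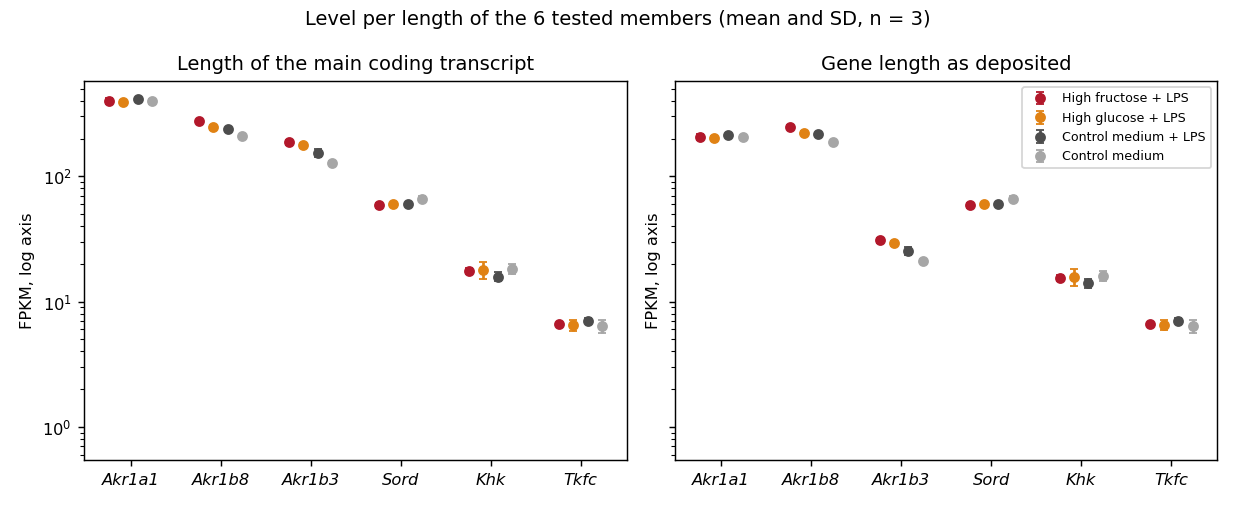
Mean level per length (vertical axis, FPKM, log axis) with SD (bars, n = 3) of the 6 tested genes in the 4 groups, by the length of the main coding transcript (left) and by the deposited gene length (right). Akr1b3 in high fructose stands at 186 FPKM on the left and 30.8 FPKM on the right, above and below Sord at 58.5 FPKM.

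Other genes that handle fructose and its products were described from a list of 28, of which 22 were tested. With LPS in control medium 8 of the 22 were called, 4 higher and 4 lower, beside the 28.8% of all genes tested, with a median log2 change of -0.04. The hexokinase genes Hk1, Hk2 and Hk3, whose enzymes can phosphorylate fructose as well as glucose, rose together. The log2 change was 0.72 for Hk2 (SE 0.08, adjusted p 1.17e-06), 0.40 for Hk1 (SE 0.05, 7.90e-06) and 0.35 for Hk3 (SE 0.04, 6.75e-06). The fourth gene called higher was Mlxip, which encodes the sugar-sensing transcription factor MondoA, at 0.22 (adjusted p 0.0154).

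Per deposited length, Hk3 was at 105 ± 2.71 FPKM with LPS and 82.9 ± 1.96 FPKM in control medium, Hk1 at 42.9 FPKM with LPS and 32.5 FPKM without, and Hk2 at 23.8 FPKM with LPS and 14.5 FPKM without. Among the genes that fell were a pair of carriers. The intracellular hexose carrier gene Slc2a8 changed by -0.82 on the log2 scale (SE 0.22, adjusted p 0.00799), and Slc2a9, which encodes a urate carrier, by -0.64 (SE 0.10, adjusted p 0.000103). The others were Aldoc, the brain aldolase, at -0.18 and the xylulokinase gene Xylb at -0.35. Aldoa was at 0.05 with an adjusted p of 0.321. The call of Mlxip was lost with library totals alone (adjusted p 0.136) and without control library 1 (0.0792) or LPS library 2 (0.0778). That of Xylb was lost without any 1 of the control libraries or LPS library 1 or 2 (0.0515 to 0.140). Without the 5 Alb-bearing libraries 3 of the 4 genes called lower lost the call, with Slc2a8 at -0.73 (adjusted p 0.118), Aldoc at -0.16 (0.155) and Xylb at -0.30 (0.265), and Slc2a9 kept it at -0.64 (0.0123).

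In high fructose 1 of the 22 genes was called, beside 4.91% of all genes tested, with a median log2 change of -0.02 over the list. It was Hk1, at 421 ± 18.0 CPM in high fructose and 368 ± 1.92 CPM in control medium with LPS, a log2 change of 0.19 (SE 0.05, adjusted p 0.0339 by edgeR). That call was lost without high-fructose library 2 or 3 or any 1 of the LPS libraries, with adjusted p of 0.0857 to 0.132. It held without the 5 Alb-bearing libraries, at 0.22 with an adjusted p of 0.0331. The values of Hk2 (-0.09), Hk3 (-0.05), Aldoa (0.04) and Slc2a8 (-0.14) did not pass the test. In high glucose 0 of the 22 were called by edgeR, beside 1.56% of all genes tested, and DESeq2 called 0. At an unadjusted p under 0.05 there were 2, beside 1780 of the 12766 genes tested. There Hk1 was at 0.09, Hk2 at -0.10, Hk3 at -0.04, Aldoa at 0.01 and Slc2a8 at 0.07. Between the sugars 0 of 22 were called by edgeR, beside 3.72% of all genes tested, and 0 by DESeq2. At an unadjusted p under 0.05 there were 0, beside 1995 of the 12766 genes tested. Hk1 was at 0.10 there, with an adjusted p of 0.356 by edgeR.

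**Figure D5:**
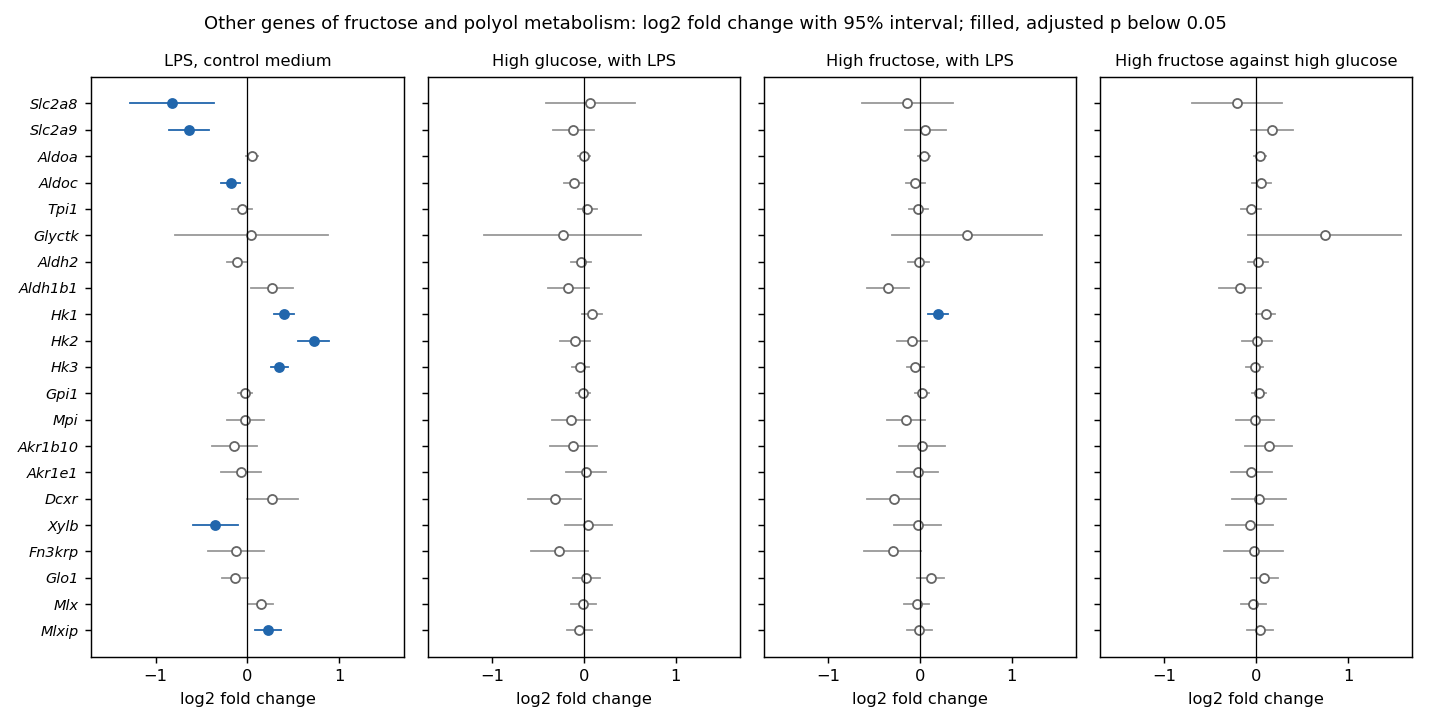
Log2 fold change (horizontal axes) with 95% intervals of the tested list genes reported here, in the 4 comparisons, with filled points where the adjusted p was below 0.05. With LPS the 3 hexokinase genes lie between 0.35 and 0.72 and Slc2a8 at -0.82, and in high fructose Hk1 at 0.19 is the only filled point.

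Akr1b3 is a textbook target of NFAT5, the factor that responds to high osmolarity, and 6 genes of the osmotic response were set beside it: Nfat5 itself, Slc5a3, Slc6a6, Slc6a12, Slc38a2 and Hspa1b. In high fructose 3 of the 6 were called, all higher, beside 4.91% of all genes tested and 2.37% called higher. The betaine carrier gene Slc6a12 was at 207 ± 6.81 CPM in high fructose and 165 ± 2.31 CPM in control medium with LPS, a log2 change of 0.33 (SE 0.05, adjusted p 0.000161). The amino acid carrier gene Slc38a2 was at 610 ± 32.6 CPM in high fructose and 499 ± 6.86 CPM in control medium with LPS (log2 change 0.29, adjusted p 0.00287). The heat shock gene Hspa1b was at 21.7 ± 1.04 CPM in high fructose and 14.7 ± 0.352 CPM in control medium with LPS (log2 change 0.56, adjusted p 0.00503, by edgeR). The other 3 were not called. Nfat5 was at 90.6 ± 7.24 CPM in high fructose and 92.7 ± 7.76 CPM in control medium with LPS (log2 change -0.03, 95% interval -0.28 to 0.21). The inositol carrier gene Slc5a3 was at 19.2 ± 4.10 CPM in high fructose and 14.9 ± 3.08 CPM in control medium with LPS (log2 change 0.36, interval 0.04 to 0.68), with an adjusted p of 0.248. The taurine carrier gene Slc6a6 was at 642 ± 13.0 CPM in high fructose and 613 ± 20.2 CPM in control medium with LPS (log2 change 0.07).

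In high glucose 0 of the 6 were called by edgeR, beside 1.56% of all genes tested. At an unadjusted p under 0.05 there were 4, beside 1780 of the 12766 genes tested. The log2 changes in high glucose were 0.14 for Slc6a12, 0.21 for Slc38a2, 0.35 for Hspa1b, 0.33 for Slc5a3, 0.03 for Nfat5 and 0.00 for Slc6a6. Slc6a12 was higher in high fructose than in high glucose, at 207 ± 6.81 CPM and 181 ± 3.01 CPM (log2 change 0.19, adjusted p 0.021), a call that was lost with the 2 groups fitted alone (adjusted p 0.112), without high-glucose library 2 (0.0527) or 3 (0.0941), without high-fructose library 1 (0.0648) or 3 (0.0974) and without the 5 Alb-bearing libraries (0.319). With LPS in control medium 4 of the 6 were called, beside 28.8% of all genes tested. Nfat5 at 0.53, Slc6a12 at 0.84 and Hspa1b at 0.48 were higher and Slc6a6 at -0.19 was lower, while Slc5a3 at -0.36 (adjusted p 0.0886) and Slc38a2 at 0.10 were not called. Without the 5 Alb-bearing libraries Nfat5 was at 0.85 with LPS, and Slc6a6 was at -0.15 and no longer called (adjusted p 0.125). With no osmotic control, added sugar and added osmolarity cannot be told apart in this design.

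The promoter of Akr1b8, called in 3 of the 4 comparisons, is shown as the 250 bases before its start, from RefSeq (GRCm38.p6, chr6:34353896-34354145, plus strand, 5′ to 3′), with motif matches in capitals.
Akr1b8: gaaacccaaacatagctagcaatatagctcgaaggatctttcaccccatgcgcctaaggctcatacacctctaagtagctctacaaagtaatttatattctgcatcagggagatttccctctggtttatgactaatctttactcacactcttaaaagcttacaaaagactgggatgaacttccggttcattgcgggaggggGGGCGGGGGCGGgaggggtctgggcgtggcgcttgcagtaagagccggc

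RefSeq promoters were found for 6 of the 7 genes. Akr1b3 had no entry, so its promoter was not searched. A set of 6 motifs was searched on both strands from 250 bases before to 50 after the start, and each is given with its share among 32851 promoters. They were the E-box CACGTG (7.15%), the antioxidant response element TGACNNNGC (12.4%), the NFAT5 core TGGAAA (21.4%), an NF-kB site (1.63%), the AP-1 site TGANTCA (7.81%) and the GC box GGGCGG (35.7%). Akr1b8 held a pair of adjacent GC boxes starting at -49 and -43 and matched no other motif. Sord had GC boxes at -77 and -43, and Slc2a5 at -172, -160 and -154. Khk had an E-box at -71 and a GC box at -38, Tkfc an antioxidant response element at -74 and an NFAT5 core at -30, and Akr1a1 none of the 6. Matches of letters describe the windows and do not show binding.

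Across the 12 libraries, the expressed protein-coding genes whose log2 CPM correlated most with a called gene were named from 9885 candidates. For Akr1b3 they were Tpm1, a tropomyosin gene (Pearson r = 0.981), and Wrb, of the pathway that inserts tail-anchored proteins (0.97). For Akr1b8 they were the calpain gene Capn2 (0.982) and the annexin partner gene S100a10 (0.98). For Sord they were Pdia4, which encodes a protein disulfide isomerase of the endoplasmic reticulum (0.939), and Vps39, of the vesicle tethering machinery (0.931). The libraries fall into 4 treatment groups, so each r also reflects the differences between groups and is given as a description.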

How the data were processed

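Raw counts for each gene were deposited by the authors, and the submitters' processing notes name featureCounts 1.5.0-p3 and mm10. FPKM values, which the authors deposited too, equalled the count divided by gene length and by 1 constant per library within 8.73e-08% for genes of at least 200 counts. Aligner, annotation release and strand setting: not given in the sources used here.

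Testing of the 12 libraries' counts used edgeR 4.0.16 under R 4.3.3 (filterByExpr, TMM, quasi-likelihood F test, 1 coefficient per group), with Benjamini-Hochberg adjustment over 12766 genes in each of the 4 comparisons and a threshold of 0.05. Values in CPM are TMM-scaled, except the marker sums and the bounds for Slc2a5, which use raw totals. The fit was tested on simulated data with the same spread for every gene and with changes larger than those of Akr1b3 and Akr1b8. That test does not bear on calls of this size. No pair of replicates agreed within counting error, with a lowest chi-square per degree of freedom of 3.61. Similar transcripts were searched with BLAST 2.17.0+ against GENCODE M21. Where a symbol had several rows, the row with most counts was used. Separation of the libraries of different groups was recorded for listed genes only. Its share over all tested genes was not counted, so each mention of it is a description. Alternatives used DESeq2 1.42.0, limma 3.58.1 on log2 FPKM with a pseudocount of 0.1 or 1, other scaling, no filter, a replicate block, fewer libraries and added copies. The last of these, and leaving out the 5 Alb-bearing libraries, were chosen after seeing the data.

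The 7 genes and the lists were chosen with earlier results of these data known. Named are all 7, up to 4 called list genes per comparison by smallest adjusted p, Hk1, Hk2, Hk3, Aldoa and Slc2a8 always, and the 2 genes most correlated with each called gene. Slc2a9, Aldoc, Xylb, Mlxip, Nfat5, Slc6a6 and Hspa1b with LPS, and other values of osmotic genes, were named after their values were seen. The list of 28 holds Slc2a2, Slc2a7, Slc2a8, Slc2a9, Slc2a12, Aldoa, Aldoc, Tpi1, Glyctk, Aldh2, Aldh1b1, Hk1, Hk2, Hk3, Gpi1, Mpi, Akr1b7, Akr1b10, Akr1e1, Dcxr, Xylb, Fn3k, Fn3krp, Glo1, Mlx, Mlxip and Mlxipl, and 1 gene that is not reported here.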

Additional observations from a re-analysis of the deposited data

How the results depend on the processing

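The rises of Akr1b3 and Akr1b8 with LPS kept their direction and call under every alternative but the one without the 5 Alb-bearing libraries, and so did that of Akr1b3 in high fructose. Slc2a5, removed by the filter on low counts, could not be tested. With 3 libraries a group the intervals of Khk and Tkfc stayed wide, and the reason for their width was not tested.

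In high glucose the called genes among the 7 numbered 1 instead of 0 with no filter, with DESeq2 and with the replicate block, and the pathway list 1 instead of 0 with no filter. Over all genes 199 calls became 427 with no filter, 329 with DESeq2, 118 and 126 with limma at pseudocounts of 0.1 and 1, 391 with the replicate block and 19 without the 5 libraries. Leaving out 1 library gave 67 to 177, with 67, 74 and 71 without LPS library 1, 2 and 3 and 70 without high-glucose library 3. In high fructose the 7 gave 1 to 2 calls leaving out 1 library and 0 without the 5 libraries. There the pathway list gave 2 calls with no filter, 0 with limma at either pseudocount and 0 to 1 leaving out 1 library.

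Between the sugars the 7 gave 0 calls with upper-quartile factors, no filter, the 2 groups alone or without the 5 libraries, and 0 to 1 leaving out 1 library, and all genes gave 735 with the replicate block, 247 with the 2 groups alone and 185 without the 5 libraries. With LPS, leaving out the 5 libraries gave 0 calls among the 7, 5 in the pathway list and 2265 over all genes, against 3, 8 and 3677. The cause was not tested, but that setting leaves 1 control and 1 high-glucose library, assumed to vary like the other groups.

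After removal of group means, same-numbered libraries correlated over all tested genes at -0.0979 to 0.12 with LPS and -0.0624 to 0.128 in high glucose. The range was 0.0511 to 0.126 in high fructose and -0.273 to -0.0627 between the sugars. With 3 libraries a group, these values cannot decide whether libraries of the same number share an effect. Akr1b3 and Akr1a1 were highest, and Hk2 and Nfat5 lowest, in library 1 of every group, while Khk had no such order. These genes were named after their values were seen, and how many of all tested genes keep such an order was not counted. With the block as an alternative, calls over all genes were 4149 with LPS, 391 in high glucose, 847 in high fructose and 735 between the sugars. Without it they were 3677, 199, 627 and 475 in that order. Among the 7 the calls with the block were 3, 1, 2 and 1.

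Changes near 0 turned sign. With LPS Akr1a1 was at -0.0274 with library totals and -0.0157 without the 5 libraries, and Aldoa at -0.00213 with upper-quartile factors and -0.0438 with library totals. In high glucose Sord was at 0.00323 with upper-quartile factors and 0.000769 with copies added, and Slc2a8 at -0.0025 without the 5 libraries. Between the sugars, without the 5 libraries, Akr1b3 was at -0.0377, Akr1a1 at -0.0691 and Aldoa at -0.0157. Leaving out 1 library gave ranges of -0.0193 to 0.0114 for Sord, -0.12 to 0.20 for Slc2a8 and -0.0130 to 0.0184 for Aldoa in high glucose, and -0.0624 to 0.0134 for Sord and -0.49 to 0.10 for Slc2a8 in high fructose. Between the sugars the ranges were -0.12 to 0.10 for Khk, -0.0427 to 0.0914 for Tkfc, -0.0590 to 0.0164 for Sord, -0.0129 to 0.0575 for Akr1a1, -0.56 to 0.0250 for Slc2a8, -0.0668 to 0.0874 for Hk2 and -0.0454 to 0.00057 for Hk3.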
